A study of Caenorhabditis elegans with 6 samples.

Results

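Chemoreceptor genes that carried antisense small RNA were followed in embryos of the nematode Caenorhabditis elegans. Gene rows named as serpentine receptors (symbols beginning with sr and 1 or 2 letters, or with str, and ending in a number) were taken where their antisense read counts, summed over 6 small RNA libraries, reached 60. Symbols starting with srp-, srf- or srl- were dropped and counted with the rows outside the name pattern. The name pattern then matched 1635 of the 32238 gene rows, and 1627 of these belonged to 23 chemoreceptor families. Of the 90 rows at or above 60 antisense counts, 84 were chemoreceptor genes, and these are described here. The other 6 rows matched by name alone and were kept apart, among them the tyrosine kinase genes src-1 and src-2, the GTPase regulator gene srgp-1, and srap-1. In these named rows the antisense sums were 76 to 102, and antisense reads made up 16.2% to 61.2% of the reads of both strands.

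The series compared 2 genotypes with 3 libraries each, called biological replicates in the labels. The double mutant carried dot-1.1(knu339) and ced-3(n1286), and the single mutant, its control, carried ced-3(n1286), so the ced-3 allele was common to every library and no embryo was wild type for it. DOT-1.1 is the worm counterpart of DOT1L, a histone methyltransferase, and CED-3 is a caspase, a protease needed for programmed cell death. Whole embryos were freed with hypochlorite from synchronised gravid adults kept at 20 °C, and inserts of 18 to 40 bases were sequenced as single reads of 50 bases. One strain stood for each genotype, and embryos were pooled without staging in the labels. In such whole-embryo samples, fewer cells of a type and less small RNA per cell cannot be told apart. Library numbers 1, 2 and 3 follow the columns of the count tables, and the labels state no pairing between genotypes.

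Chemoreceptor genes of the sr and str families encode membrane proteins that couple to G proteins and detect odours, tastes and pheromones, most of them in a few sensory neurons. In C. elegans, RNA-dependent RNA polymerases copy messenger RNAs into short antisense RNAs, which Argonaute proteins use to silence or to license genes. Piwi-interacting RNAs, encoded mostly in clusters on chromosome IV, start such silencing at imperfectly matched targets. Antisense reads over a receptor gene are therefore the strand on which small interfering RNAs would lie, while sense reads could also be pieces of the messenger RNA itself.

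Total sense counts were 19529265 to 26409182 in the double mutant and 19206363 to 22344506 in the single mutant, and total antisense counts were 4892780 to 6568937 and 4891289 to 6151546. Embryonic microRNAs of the mir-35 to mir-42 group summed to 4834074 to 8563569 sense counts in double mutant libraries and 4972863 to 6694494 in single mutant libraries. Larval and adult microRNAs (let-7, lin-4, mir-48, mir-84 and mir-241) summed to 2897 to 9316 and to 2389 to 4373, and none of either group was at 0. The 6 vitellogenin genes, yolk genes of the adult intestine, summed to 284 to 337 in double mutant libraries and 7 to 813 in single mutant libraries. MicroRNAs took 72.9%, 79.0% and 89.5% of sense counts in double mutant libraries 1, 2 and 3, against 77.8%, 92.4% and 86.7% in single mutant libraries 1, 2 and 3. Double mutant library 3 and single mutant library 2 thus stood highest, one in each genotype, and are called the microRNA-rich libraries here.

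Antisense counts of the receptors were few and uneven. Across the 1627 chemoreceptor genes the median antisense sum was 5 counts, 90 genes had none, and 5.16% reached 60, while 23.6% of the 30603 rows outside the name pattern did. The 84 genes had a median sum of 109 and held 33147 of the 45471 antisense counts over all chemoreceptors (72.9%). A single gene, srv-15, held 21.6% of those 33147 counts, the top 3 genes 42.0% and the top 10 genes 65.8%. Just inside the threshold lay str-102, srg-39 and srt-25 with 62 counts each. Just outside lay srt-53 and srh-48 with 59 and srd-1 with 54.

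Reads over the chosen genes lay overwhelmingly on the antisense strand, which the selection on antisense counts favours. Their sense reads summed to 1735, against 33147 antisense reads, and the median antisense share per gene was 93.9%. Antisense counts exceeded sense counts in 82 of 84 genes, made up at least 90% in 56 of them and at least 99% in 14. With reads pooled over genes, the antisense share was 95.03% in the 84 genes and 38.4% in the 1543 chemoreceptors under the threshold. A pooled share is weighted to genes with many reads and is not a median per gene. Antisense counts exceeded sense counts in 736 of the 1543. Rows outside the name pattern that also reached 60 antisense counts had a median antisense share of 67.1%, with antisense above sense in 71.6%. These values describe the genes as selected and were not tested.

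**Figure D1:**
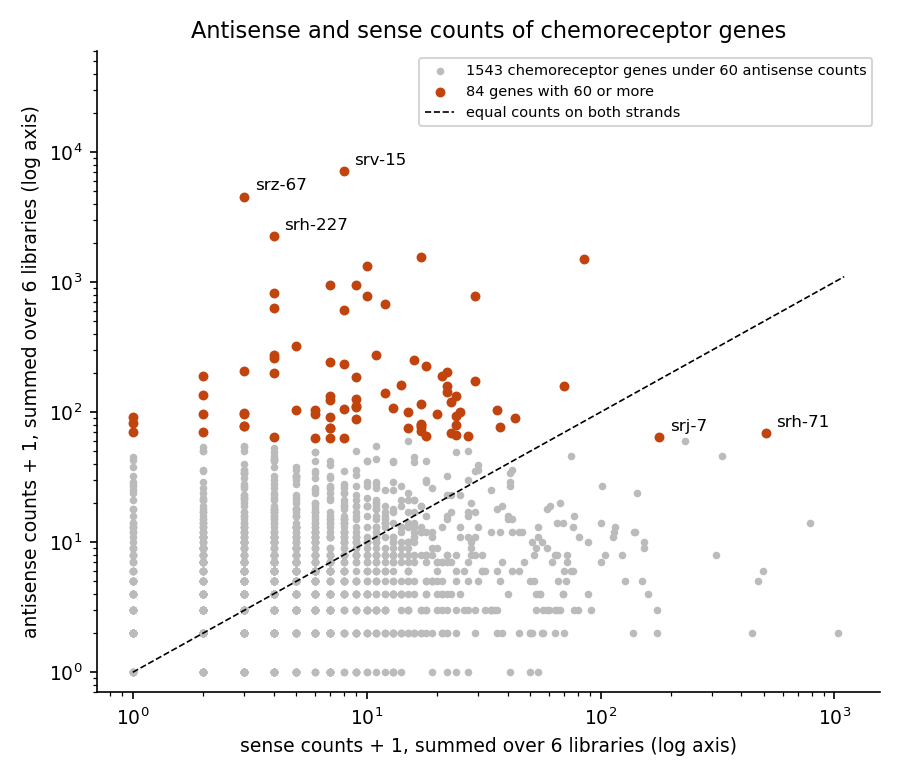
Antisense against sense counts of each chemoreceptor gene, summed over 6 libraries, with 1 added and both axes logarithmic; the 84 genes with 60 or more antisense counts are marked apart from the 1543 below. Of the 84 genes, 82 lie above the line of equal counts, srv-15 is highest, and srh-71 and srj-7 lie below the line.

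The exceptions had the most sense reads. srh-71 had 68 antisense counts and 509 sense counts, and srj-7 had 63 and 177. The next lowest antisense shares among genes without an annotated opposite exon were 67.9% in srh-98 and 69.5% in the pseudogene str-179. At the other end, srw-76, str-28 and srbc-78 had 91, 82 and 69 antisense counts and 0 sense counts. For counting error alone, a count of 0 allows up to 3 sense counts, which is 3.30%, 3.66% and 4.35% of the antisense counts of these genes. Antisense and sense sums were almost unrelated in rank across the 84 genes (Spearman's rho −0.08, a description across genes that share the same libraries), and so were antisense sum and gene length (rho −0.10).

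Some antisense counts could not be assigned to the receptor alone. An exon of another gene, leaving out Piwi-interacting RNA loci, lay on the opposite strand of 19 of the 84 genes (22.6%), against 110 of the 1543 below the threshold (7.13%). Reads of such a partner would count as antisense to the receptor. In 17 of the 19 the receptor's antisense sum exceeded the sense sum found for the partner. That sum was 0 in 5, where a partner without a gene row of its own was also taken as 0. Examples of partners were btb-14 opposite sre-42, the histone acetyltransferase gene lsy-12 opposite sru-8, and the sorting nexin gene snx-14 opposite sre-45. These overlaps covered 100, 5 and 51 bases of exon. A Piwi-interacting RNA locus lay opposite an exon of 4 genes (4.76%), srv-15, srh-227, srt-51 and srv-14, against 39 of the 1543 below the threshold (2.53%). The 61 genes with no opposite exon held 59.1% of the antisense counts. Among the rest were srv-15 and srh-227, with 7164 and 2246 counts. In these 2 genes only Piwi-interacting RNA loci lay opposite, over 12 and 21 bases.

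Family membership was broad. Genes with 60 or more antisense counts came from 20 of 23 families, all but srm, srtx and srxa. The large families srh and str gave 14 genes each, 4.79% of 292 srh genes and 6.22% of 225 str genes. A larger share was seen in srd (10 of 75, 13.3%, or 8 of 73 with each of 2 possibly duplicated pairs counted once), srv (4 of 35, 11.4%) and sre (6 of 56, 10.7%). Low shares were seen in sri (1 of 78, 1.28%), srg (1 of 68, 1.47%) and srx (3 of 137, 2.19%). By counts the order differed, because srv-15 alone placed srv first with 24.8% of the antisense counts, before srz with 17.7%, srh with 14.1%, sre with 11.4% and str with 9.61%.

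**Figure D2:**
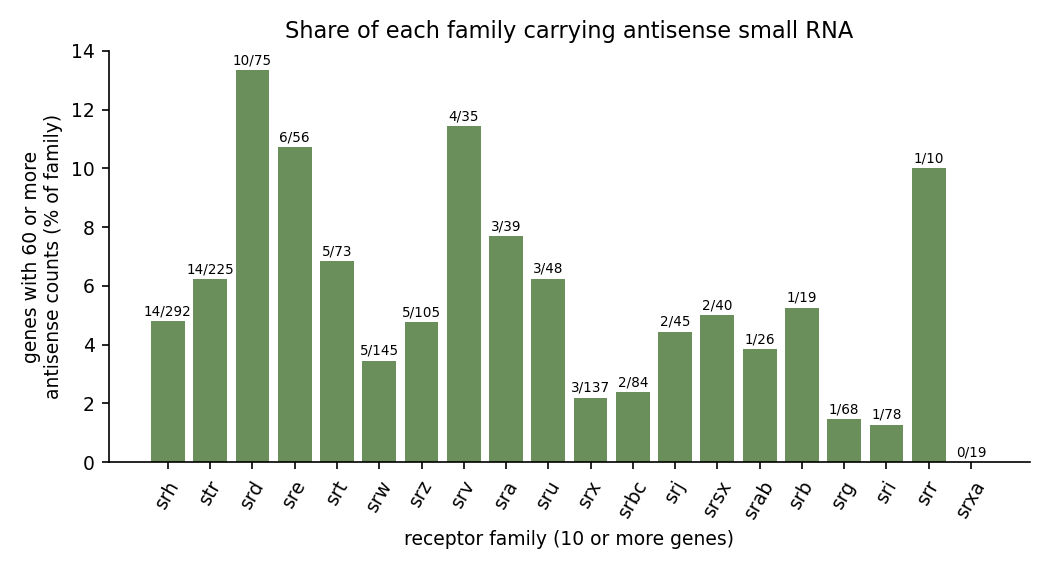
Percentage of the genes of each receptor family, for families of 10 or more genes, that had 60 or more antisense counts. The srd, srv and sre families stand at 13.3%, 11.4% and 10.7% (for srd, 8 of 73 with possible duplicates counted once), while sri and srg stand at 1.28% and 1.47%.

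Annotated pseudogenes made up 13 of the 84 genes (15.5%), against 306 of 1543 below the threshold (19.8%). The pseudogenes srz-43, srw-104 and srt-51 were nevertheless among the genes with the most antisense counts. Median length, from the deposited gene lengths, was 1053 bases in the 84 genes and 1020 in the rest, and the median exon number was 5 in both. For 4 genes (sru-42, srh-98, sri-31 and srh-71) the deposited length exceeded the annotated span, so their reads may come from outside the annotated gene.

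Chromosome IV carried more of these genes and of their reads than its share of receptors. Coordinates are from the WBcel235 genome build. Chromosome V held 48 of the 84 genes, among 1111 receptors (4.32%), chromosome IV 18 among 195 (9.23%) and chromosome II 14 among 206 (6.80%). The genes on chromosome IV held 41.1% of the antisense counts, those on V 32.3% and those on II 25.3%. This order rested on srv-15, which alone had 7164 of the 13618 counts on IV, against 10701 on V and 8383 on II. Chromosome X had 2 of the genes, and I and III had 1 each. Within 10000 bases of the 18 genes on IV lay a median of 15 annotated Piwi-interacting RNA loci, against a median of 5 for the other 177 receptors on IV and 0 for the 66 genes elsewhere. Any such locus was present that near to 15 of the 18 and to 135 of the 177, with maxima of 117 and 126 loci. Such loci are not among the gene rows of the count tables, so their own reads were not measured here.

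Neighbours of these genes were among them about as often as any receptor. Other chemoreceptors within 10000 bases of the 84 genes numbered 172, of which 9 were themselves among the 84 (5.23%), near the 5.16% of all receptors. The 163 neighbours below the threshold had a median antisense sum of 4, against 5 over all 1543.

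srv-15, on the plus strand of chromosome IV (15906582 to 15910091), carried the most antisense RNA. It had 563, 1374 and 1535 antisense counts in double mutant libraries 1, 2 and 3, against 673, 1713 and 1306 in single mutant libraries 1, 2 and 3, with 7 sense counts in all. Library 1 was the lowest in both genotypes, and the groups overlapped. Scaled to CPM (counts scaled to a common library size) of the TMM-adjusted library size (TMM is edgeR's correction for library composition) and per kilobase, the level was 219.5 ± 134 in the double mutant and 231.8 ± 131 in the single mutant (SD, n = 3 each). Its exons overlapped Piwi-interacting RNA loci on the other strand by 12 bases, and 117 such loci lay within 10000 bases.

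srz-67, on the minus strand of chromosome II (3235956 to 3237138), was the most even of the abundant genes. Its antisense counts were 789, 809 and 642 in double mutant libraries, against 964, 641 and 682 in single mutant libraries, and its sense sum was 2. No library stood apart and the groups overlapped. The level was 142.5 ± 18.6 CPM per kilobase in the double mutant and 140.9 ± 10.2 in the single mutant. It lay opposite no annotated exon and had no Piwi-interacting RNA locus within 10000 bases.

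srh-227, the next by level, has a neighbour on chromosome IV, srh-228, of lower level. srh-227, on the minus strand (16342490 to 16344199), had 178, 349 and 408 antisense counts in the double mutant, against 242, 612 and 457 in the single mutant. srh-228, on the plus strand (16339665 to 16341374), had 78, 107 and 139, against 91, 218 and 147. In both genes library 1 was the lowest of its genotype, and the groups overlapped. The pair lay 1115 bases apart, spanned 1710 bases each on opposite strands, and may share reads if the copies are alike, so the division of counts between them is uncertain. Levels were 20.9 ± 10.8 CPM per kilobase in the double mutant and 29.0 ± 16.6 in the single mutant for srh-228, and differed by less than their spread for srh-227 too.

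The pseudogene srt-51, also on chromosome IV (14921093 to 14922787, minus strand), had 56, 118 and 124 antisense counts in double mutant libraries, against 65, 160 and 108 in single mutant libraries. Library 1 was again the lowest in each genotype, and the groups overlapped. In its surroundings 85 Piwi-interacting RNA loci lay within 10000 bases. sre-42, on chromosome II opposite btb-14, had 74, 319 and 232, against 263, 241 and 425, with double mutant library 1 lowest.

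Other abundant genes differed in how they spread over libraries. srt-17, on chromosome V, had 417, 381 and 102 antisense counts in the double mutant, against 279, 189 and 131 in the single mutant, and the groups overlapped. The pseudogene srz-43 had 178, 177 and 97, against 221, 125 and 156, and its levels of 27.5 ± 4.07 and 30.3 ± 3.35 CPM per kilobase differed by less than their spread. str-148, on chromosome II, had 110, 110 and 192, against 83, 107 and 183, with library 3 the highest in both genotypes.

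A further set was nearly empty in both microRNA-rich libraries. sre-28 had 745, 329 and 5 antisense counts in double mutant libraries, against 202, 7 and 46 in single mutant libraries. str-185 had 656, 206 and 4, against 61, 2 and 11. sre-14 had 355, 119 and 1, against 111, 1 and 19. In these genes double mutant library 1 was the highest, and double mutant library 3 and single mutant library 2 were the lowest of their genotypes, and the groups overlapped. srv-34 showed the same form, with 324, 206 and 8, against 167, 11 and 108. The pseudogene srw-104 was also low in both of these libraries but highest in the single mutant, with 76, 3 and 4, against 318, 3 and 270.

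In order of level in CPM per kilobase over all libraries, srv-15 stood first, followed by srz-67 and srh-227, and from srh-227 down neighbouring levels did not separate. srv-15 and srz-67 differed by less than the spread of srv-15. The genes srt-17 (51.3 ± 24.6 in the double mutant and 35.5 ± 9.93 in the single mutant), sre-42 (34.7 ± 20.4 and 50.7 ± 17.7) and sre-28 (55.8 ± 60.8 and 12.5, with a spread of similar size) overlapped within their spread.

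**Figure D3:**
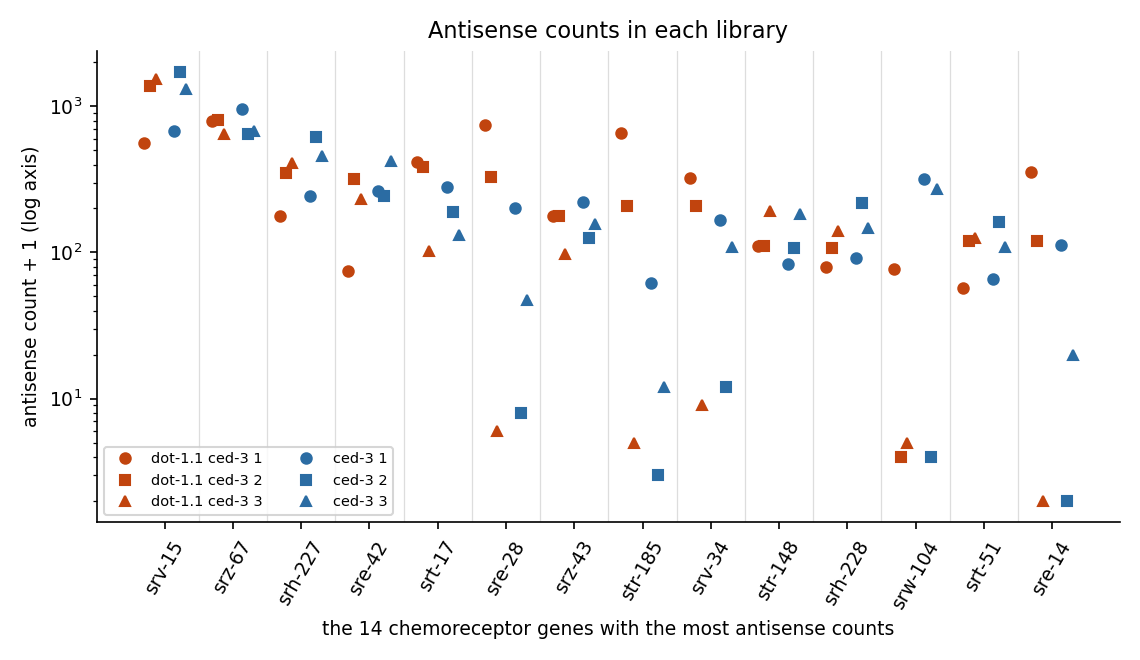
Antisense counts, with 1 added and on a log axis, of the 14 chemoreceptor genes with the most antisense counts in each of 6 libraries (double mutant left of single mutant within each gene). srv-15 and srz-67 stay between 563 and 1713 counts in every library, whereas sre-28 ranges from 5 to 745 and str-185 from 2 to 656.

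The 84 genes were sorted by the share of their antisense counts that lay in the microRNA-rich libraries, a grouping made after the counts were seen and given with no test. These libraries held 38.6% of all antisense counts, and 26.4% of the TMM-adjusted library sizes. The median share was 18.3% over the 84 genes and 27.1% over the 7297 genes tested for genotype. In 21 of the 84 genes the share was under 5%, a range that held 4.06% of all tested genes. In 12 it was 35% or more, a range that held 16.2% of all tested genes. After TMM scaling both microRNA-rich libraries were the lowest of the 6 in 30 of the 84 genes (35.7%), against 14.6% of all tested genes.

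The 21 genes summed to 3152, 1186 and 36 antisense counts in double mutant libraries 1, 2 and 3, against 1234, 48 and 642 in single mutant libraries 1, 2 and 3. The 12 genes at the other end, among them srv-15, srh-227, srh-228 and srt-51, summed to 1078, 2226 and 2618, against 1280, 2978 and 2362. The first set was almost absent from the microRNA-rich libraries, and the second was lowest in library 1 of each genotype. Sorting on these libraries fixes that the sets differ in them. Of the 12 genes, 5 lay on chromosome IV, as did 5 of the 21. The part of the microRNA share in these patterns was not tested.

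**Figure D4:**
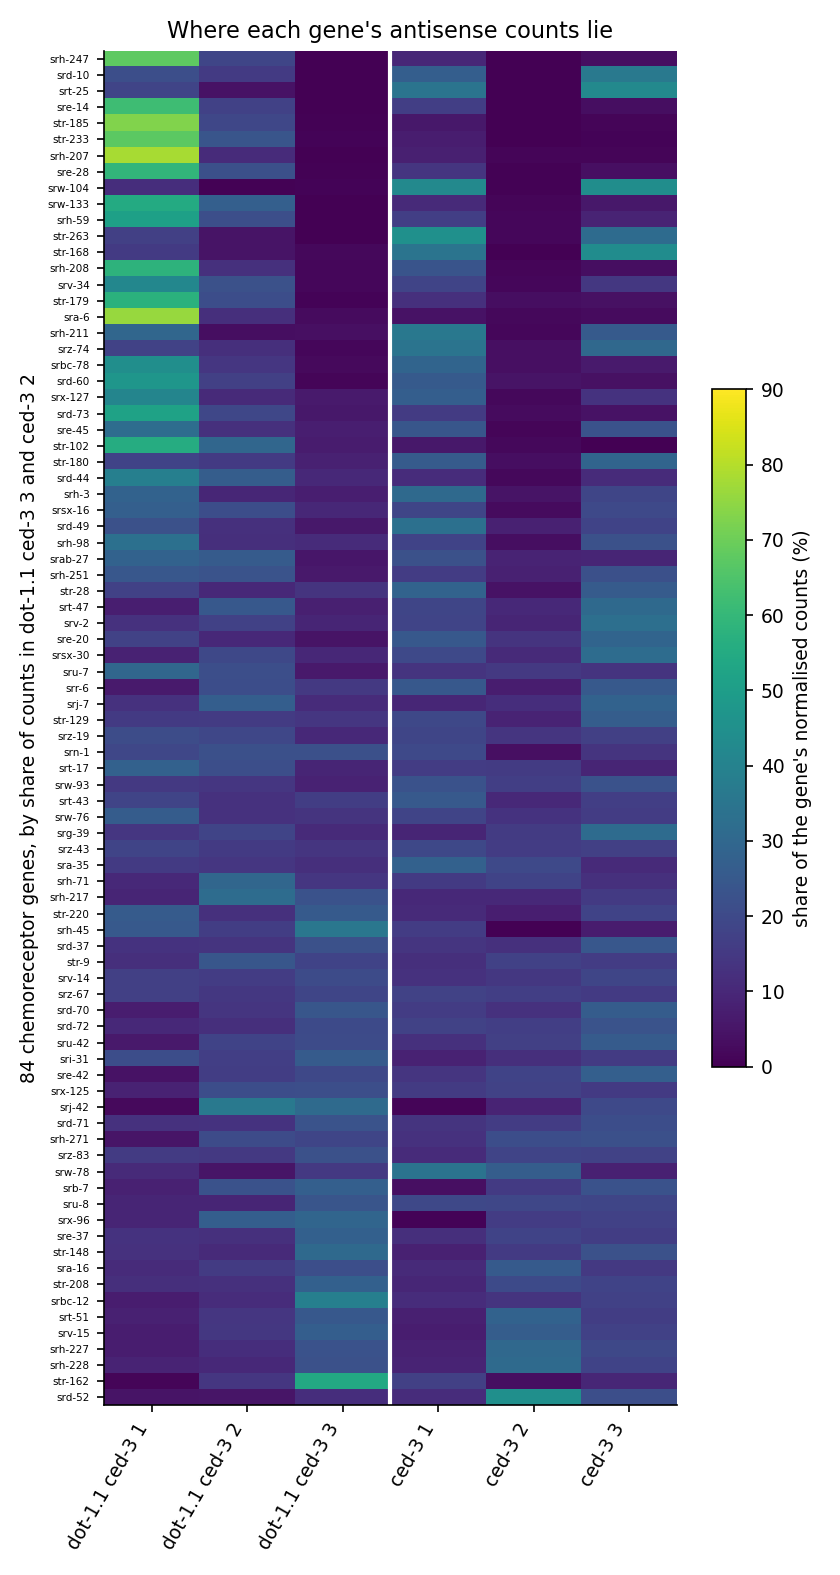
Share of each gene's TMM-normalised antisense counts that fell in each of 6 libraries (columns, double mutant left of single mutant), for the 84 genes (rows) ordered by the share in double mutant library 3 and single mutant library 2. The upper rows are dark in those 2 libraries and bright in double mutant library 1 or in single mutant libraries 1 and 3, and the lower rows are dark in library 1 of each genotype.

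No genotype difference in the antisense counts of these genes passed the test. In edgeR's quasi-likelihood test over the whole antisense table, 77 of the 84 genes passed the filter on low counts, and 0 were called at an adjusted p (Benjamini-Hochberg) under 0.05, where 0% of the 7297 genes tested were called. At an unadjusted p under 0.05 the genes higher in the double mutant numbered 3 (background 2.89%) and the gene lower numbered 1 (background 2.37%). The log2 fold change of double over single mutant was above 0 in 42 of 77 (54.5%, background 51.8%), with a median of 0.11 against 0.02 over all tested genes. It ranged from −2.72 to 3.62, and 55 of the 77 genes lay within 1 of 0. The smallest adjusted p of any of them was 0.847. In simulated data of the same depth this test recovered 93.9% of genes changed 8-fold, 38.8% of those changed 4-fold and 1.49% of those changed 2-fold. Smaller differences were thus not detectable here. The simulation used the spread typical of all tested genes. Among the 77 genes the median standard error was 0.60, against 0.44 over all tested genes, so these rates may be too high for them.

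The sum over the 84 genes also overlapped. It was 1185, 936 and 1054 normalised CPM in double mutant libraries, against 828, 1024 and 1017 in single mutant libraries, or 1058 ± 125 and 956 ± 111 (SD, n = 3 each). Single mutant library 1 was lowest and double mutant library 1 highest. The antisense share of both strands was 95.1% ± 1.29 in the double mutant and 95.3% ± 1.80 in the single mutant.

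Genes with the smallest p differed in few libraries. sra-6, a receptor gene used as a marker of the ASH and ASI sensory neurons, had 205, 39 and 5 antisense counts in the double mutant, against 14, 4 and 7 in the single mutant. Double mutant library 1 held most of them, and the groups overlapped. The log2 fold change was 3.29 ± 1.13 (SE), with an edgeR adjusted p of 0.847, and 1.31 without double mutant library 1. str-185, described above, had a log2 fold change of 3.62 ± 1.54, which was 1.99 to 5.25 when 1 library was left out, lowest without double mutant library 1 and highest without single mutant library 1. str-233, opposite the gene C06C6.12, had 90, 38 and 1, against 11, 0 and 1, with a log2 fold change of 3.39 ± 1.33, and 2.17 and 5.89 without the same libraries. Both had the same adjusted p of 0.847 and were low in double mutant library 3.

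The pseudogene srd-52, opposite K02A2.10, was the gene with the smallest p in the other direction. It had 4, 5 and 7 antisense counts in the double mutant, against 11, 30 and 17 in the single mutant, with no overlap in raw counts but an overlap after TMM scaling. Its log2 fold change was −1.86 ± 0.62, with an edgeR adjusted p of 0.847, and −1.23 without single mutant library 2. The pseudogene srw-93, on chromosome I, had 31, 35 and 13, against 55, 28 and 45, and its normalised levels did not overlap. Its log2 fold change was −0.70 ± 0.34 at the same adjusted p.

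After normalisation srh-45 and sri-31 were higher in every double mutant library than in every single mutant library, 2 of 77 genes where 5.26% of all tested genes did so. srw-93 alone was lower in every one, where 5% of all tested genes were. srh-45 had 27, 21 and 28 antisense counts in the double mutant, against 20, 0 and 7 in the single mutant, and a log2 fold change of 1.65 ± 0.81. That value was 2.78 without single mutant library 1 and 0.81 without the microRNA-rich libraries. sri-31 had 17, 16 and 15, against 8, 8 and 12, and a log2 fold change of 0.79 ± 0.41. Neither passed the test (edgeR adjusted p 0.847).

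For the pair of genes with the highest levels the log2 fold change was −0.08 ± 0.66 for srv-15 (edgeR adjusted p 0.985) and 0.02 ± 0.41 for srz-67 (0.994). Leaving out single libraries moved srv-15 between −0.60 and 0.39, and its sign changed.

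The 21 genes low in both microRNA-rich libraries gave the widest differences. All 14 of them with a log2 fold change above 0 were highest in double mutant library 1, and summed to 2990, 1144 and 28 counts in the double mutant, against 737, 40 and 230 in the single mutant. The 7 below 0 (srd-10, srh-211, srt-25, srw-104, srz-74, str-168 and str-263) were highest in single mutant library 1 or 3, and summed to 162, 42 and 8, against 497, 8 and 412. In the first set double mutant library 1 held most of the counts, and in the second single mutant libraries 1 and 3 did. The 21 genes were sorted on near-empty microRNA-rich libraries, so the sign of the log2 fold change all but fixed the genotype of their highest library. A near-empty library in each genotype also favours wide differences and large standard errors. For the 21 genes the median standard error was 1.13, against 0.52 in the other 56 tested and 0.44 over all tested genes. Of those 56, 50 lay within 1 of 0, with a median of −0.02.

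**Figure D5:**
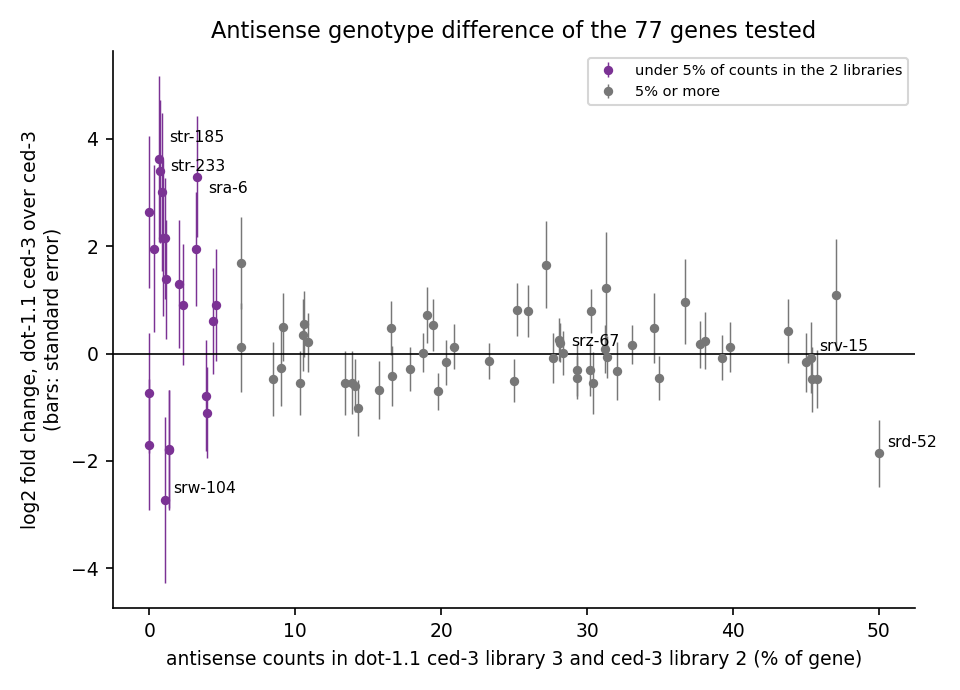
Antisense log2 fold change of double over single mutant (vertical, bars are standard errors) of the 77 tested genes against the percentage of their antisense counts in double mutant library 3 and single mutant library 2 (horizontal). Genes under 5% spread from −2.72 to 3.62, while 50 of the 56 others lie within 1 of 0. Sorting on a near-empty library in each genotype itself favours a wide spread.

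Of 7 genes not tested for their low counts (srd-44, srh-71, srx-127, srj-7, srw-78, srg-39 and str-102), str-102 had normalised levels that did not overlap. Its antisense counts were 33, 21 and 3 in the double mutant, against 4, 1 and 0 in the single mutant. With no filter on low counts it was called by edgeR (log2 fold change 3.36 ± 0.72, adjusted p 0.00299), 1 of the 84 genes, where 0.418% of 27271 genes were called.

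Pairs of srd genes on chromosome V repeated one another. srd-60 and srd-73, both on the plus strand with spans of 2503 bases, and srd-71 and srd-72, both on the minus strand with spans of 2920 bases, lay at the same offset of 108279 bases. srd-60 had 49, 21 and 1 antisense counts in the double mutant, against 31, 4 and 4 in the single mutant, and srd-73 had 48, 21 and 4, against 17, 2 and 4. srd-71 had 14, 17 and 18, against 17, 14 and 22, and srd-72 had 10, 14 and 14, against 20, 13 and 21. Within each pair the libraries stood in a like order, apart from single mutant library 1, where srd-60 was above srd-73. The first pair was higher than the second in double mutant library 1 and lower in library 3 of both genotypes and in single mutant library 2. Equal spans and offset mark possible duplicate copies, so these 4 genes cannot be taken as 4 separate loci.

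Sense reads were too few for most of these genes. By sense counts, 4 of the 84 passed the filter, and edgeR called 0 at an adjusted p under 0.05, where 0% of the 7680 genes tested were called. Before adjustment, 0 of the 4 had a p under 0.05 and were higher (background 5.72%), and 0 were lower (background 2.41%). str-179 had 8, 7 and 6 sense counts in the double mutant, against 12, 19 and 17 in the single mutant, with a log2 fold change of −1.15 ± 0.61 (edgeR adjusted p 0.603), and −0.52 without single mutant library 2. srh-71 had 127, 127 and 48, against 95, 40 and 72, with a log2 fold change of 0.73 ± 0.42 (edgeR adjusted p 0.619). The raw sense counts of str-179 did not overlap between the genotypes, but its levels overlapped after TMM scaling. Those of srh-71 overlapped in raw counts. srt-17 had 18, 13 and 9 sense counts, against 25, 1 and 18, and srj-7 had 12, 42 and 29, against 46, 18 and 30, both with groups that overlapped.

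Whether the antisense counts changed otherwise than the sense counts was tested as an interaction of strand and genotype. Enough reads on both strands were present for srt-17 and str-179, the 2 of the 84 genes that passed the filter on low counts in each table, and edgeR called 0 of them at an adjusted p under 0.05, where 0% of the 4055 genes that passed in each table were called. The interaction was −0.06 ± 0.78 on the log2 scale for srt-17 (edgeR adjusted p 0.994) and 2.54 ± 1.29 for str-179 (edgeR adjusted p 0.825), a positive value meaning antisense higher relative to sense in the double mutant. Neither had an unadjusted p under 0.05. In the fit that kept genes by their counts over both tables, 0% of 13616 genes were called and all 84 genes entered. Of the 84, 80 had too few sense counts for the sense filter and 46 had fewer than 10, so that fit says little about these genes. In simulated data it recovered 27.3% of genes changed 8-fold, 1.49% of those changed 4-fold and 0% of those changed 2-fold. Without double mutant library 3 it called str-179 (3.58 ± 0.87, edgeR adjusted p 0.0185), 1 of the 84 genes, where 0.458% of 15068 genes were called.

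Of 23 measured receptors with a known ligand or cell of expression, sra-6 was among the 84 (4.35%, against 5.16% of all chemoreceptors). The other 22 had 1 to 54 antisense counts, the highest being srd-1 with 54 and srbc-66 with 35. str-1, a marker of the AWB neurons, had 1 antisense count and 137 sense counts, and odr-10, the diacetyl receptor gene, had 23 and 4.

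A list of genes linked to chemosensory signalling and receptor trafficking was looked at in the same tables. It also held the receptor genes odr-10 and str-112 and the transcription factor genes odr-7, che-1 and lim-4. Of 46 measured genes, among them G protein subunits, cyclic nucleotide channels and guanylate cyclases, 14 reached 60 antisense counts, and antisense exceeded sense counts in 27. Their median antisense share was 56.3%. By antisense counts, 13 were tested, 7 lay above 0 with a median log2 fold change of 0.07, and 0 were called by edgeR. By sense counts, 11 were tested, 8 lay above 0 with a median of 0.29, and 0 were called. tax-6, a calcineurin subunit gene, had the most antisense counts, with 51, 57 and 21 in the double mutant, against 51, 80 and 48 in the single mutant. gcy-28, a guanylate cyclase gene, had 57, 60 and 43, against 31, 16 and 19, groups that did not overlap, with a log2 fold change of 1.32 ± 0.30 that did not pass adjustment (edgeR adjusted p 0.847, unadjusted p 0.00197). odr-4, required to bring receptors to the sensory cilium, had 29, 18 and 9, against 33, 25 and 21.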

How the data were processed

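The authors deposited 2 tables of raw read counts per gene, with a length for each gene and 1 column per library. One table is named antisense, and the other, which held the microRNA reads, was read as sense. The sources used here name no aligner or counter and do not say how reads that match several places were treated. The submitters' processing notes name the build WBcel235. Sample titles number replicates 2 and 3 otherwise than the columns do, while the genotype is not in doubt. All 1635 rows matching the name pattern were found in Ensembl release 115 (1298 by name, 337 by sequence name), which gave positions, strands and opposite exons.

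Genotype was tested in each table by edgeR 4.0.16 under R 4.3.3 (its filter on low counts, TMM, robust quasi-likelihood F test, Benjamini-Hochberg over all genes tested, threshold 0.05). The interaction of strand and genotype used library as a block. DESeq2 1.42.0 was an alternative. Standard errors are the log2 fold change over the square root of F. The main fits of the antisense table, the sense table and the interaction were tested on simulated data. The sense fit recovered 84.8% of genes changed 8-fold, 40.3% of those changed 4-fold and 1.49% of those changed 2-fold. The interaction fit limited to genes that passed in each table was not simulated. The p-values measure the spread between 3 libraries of 1 strain per genotype.

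The genes described, and the lists beside them, were chosen with earlier results of these data known. Named genes were the 8 highest per kilobase without an opposite exon and the 4 highest with one, the 6 and 4 with the smallest p in the antisense and sense tests, the 3 highest and 3 lowest antisense shares among genes without an opposite exon, the 3 on each side of the threshold and receptors of known function; others were named after their values were seen. Protein identity and sequences were not used here. Rows outside the receptor families that are not named in the text are not reported here.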

Additional observations from a re-analysis of the deposited data

How the results depend on the processing

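At an adjusted p under 0.05, 0 genes were called in each table and in the interaction. In the antisense table DESeq2 called 8 genes (1 higher, 7 lower, none of the 84) and edgeR without a filter on low counts called 114 (89 higher, 25 lower, str-102 alone of the 84). In the sense table no filter gave 117 (102 higher, 15 lower), leaving out the 2 microRNA-rich libraries, an alternative chosen after seeing the data, gave 151, and leaving out 1 library gave 0 to 6, none of them among the 84 genes. In the interaction, leaving out 1 library gave 0 to 69, the most without double mutant library 3, and leaving out the microRNA-rich libraries gave 38. Correlations of same-numbered libraries in the antisense table were 0.64, −0.02 and −0.03. Those of differently numbered libraries ranged from −0.60 to 0.55, so these values cannot tell whether the numbers pair samples. With a replicate block 0 genes were called in each test. Signs turned for genes whose log2 fold change was near 0. srv-15 ranged from −0.60 to 0.39 without 1 library. srz-67 ranged from −0.064 to 0.11 without 1 library, and was −0.059 with library totals, −0.030 without a filter and −0.081 without the microRNA-rich libraries. In sense counts, where the median of all genes lay at −0.27 with library totals and −0.18 with microRNA scaling, srt-17 was −0.20, −0.13 and, without the microRNA-rich libraries, −0.074, and ranged from −0.12 to 0.44 without 1 library. srj-7 was −0.26 and −0.22 with these scalings and −0.023 with the replicate block, and ranged from −0.13 to 0.57. The summed antisense level differed by 0.15 (log2), and by 0.34 without genes that have an opposite exon. The causes were not tested.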
